A study of Mus musculus with 16 samples.

Results

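Single-list regions are stretches of open chromatin that were called as a peak in 1 of 8 mouse progenitor peak lists and in none of the other 7. Overlapping peaks (1 bp or more) on chromosomes 1 to 19 were joined across the lists, which gave 118981 union regions, and 22535 of these (18.9%) held a peak from exactly 1 list. A further 11604 regions were found in 2 lists, and 40645, or 34.2%, were found in all 8. The single-list regions were therefore chosen by where peaks were called, and their number and strength are given here as a description, with no test.

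The lists came from ATAC-seq, in which the Tn5 transposase cuts and tags accessible DNA, of haematopoietic progenitors labelled as multipotent progenitors (MPP) from mice aged 21 days. The 16 samples formed 8 groups of 2 samples. Set 1 held wild type, Runx1-het, Flt3-ITD and their combination Flt3-ITD/Runx1-het, while set 2 held wild type, NUP98-HOXD13, Flt3-ITD and NUP98-HOXD13/Flt3-ITD. Flt3-ITD is an internal tandem duplication that makes the cytokine receptor FLT3 constantly active, Runx1-het is the loss of 1 copy of the blood transcription factor gene Runx1, and NUP98-HOXD13 is a leukaemia fusion of a nucleoporin with a homeodomain protein. Only the naming of the samples separates the sets. How the sets differ, in which cells or from which promoter the alleles were expressed, and whether animals were pooled is not stated in the labels. Wild type and Flt3-ITD each occur in both sets, and each of the other alleles in 2 lists, so a region that followed an allele through both of its lists could not be a single-list region. Both samples of a group shared 1 list, so there was no value per sample, no error between samples and no read depth.

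Open chromatin marks where nucleosomes have given way to transcription factors. Promoters, mostly rich in CpG in mammals, are open in many cell types, while enhancers, which often lie in introns or between genes, are more cell-type specific. A peak caller accepts a stretch of DNA when cuts there exceed the local background. Of the marker genes with an annotated start, Kit (the stem cell factor receptor), Flt3 and Cd34 had a region within 1 kb of the start in all 8 lists, as did 11 of 14 genes of stem cell self-renewal and 15 of 18 of lymphoid priming. No list had one at the T cell receptor genes Cd3d, Cd3e and Cd3g or at the B cell factor gene Pax5. Other lineages were not absent: 11 of 20 granulocyte and monocyte genes, 5 of 10 B cell genes (Ebf1, Igll1, Blnk, Rag1 and Cd72), 6 of 16 T and NK cell genes and 2 of 9 stromal and endothelial genes had a start region in all 8 lists. So had 7 of 11 megakaryocyte and erythroid genes, 9 of 15 dendritic cell genes and 4 of 14 mast cell, basophil and eosinophil genes. For scale, 9649 of all 16457 genes with an annotated start had an 8-list region in a shorter window just before the start. The share of all genes within 1 kb is not given, so these counts do not set progenitor genes apart. Whether cells of other lineages were present was not tested.

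Some single-list regions covered an annotated gene start, and 4 such promoters are shown because they differ in CpG content. Windows of lower and of higher GC content also occurred under such regions. Each line is the 250 bases before the start, 5′ to 3′ on the strand of the gene, from RefSeq (GRCm38.p6), with CpG dinucleotides in capitals. The window of Serpinb1c, a serine protease inhibitor gene, is chr13:32940601-32940850 on the minus strand. That of Lama2, which encodes a laminin chain of the basement membrane, is chr10:27616943-27617192 on the minus strand. For Tmem267, a transmembrane protein gene, it is chr13:119487836-119488085 on the plus strand. For Igf2bp3, a fetal RNA-binding protein gene, it is chr6:49214955-49215204 on the minus strand.
Serpinb1c: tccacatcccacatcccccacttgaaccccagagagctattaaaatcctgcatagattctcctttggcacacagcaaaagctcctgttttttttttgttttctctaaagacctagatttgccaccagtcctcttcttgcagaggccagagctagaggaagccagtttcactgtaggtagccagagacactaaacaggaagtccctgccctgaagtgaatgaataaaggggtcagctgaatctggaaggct
Lama2: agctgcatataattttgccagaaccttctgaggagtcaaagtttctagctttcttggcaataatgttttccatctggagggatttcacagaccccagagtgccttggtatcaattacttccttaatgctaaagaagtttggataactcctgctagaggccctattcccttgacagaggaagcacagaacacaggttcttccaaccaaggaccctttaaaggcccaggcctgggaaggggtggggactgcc
Tmem267: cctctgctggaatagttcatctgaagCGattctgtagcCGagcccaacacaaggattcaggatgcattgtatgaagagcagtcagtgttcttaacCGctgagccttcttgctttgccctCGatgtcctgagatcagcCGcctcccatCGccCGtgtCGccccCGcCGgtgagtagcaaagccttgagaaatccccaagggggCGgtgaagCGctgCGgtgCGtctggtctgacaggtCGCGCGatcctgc
Igf2bp3: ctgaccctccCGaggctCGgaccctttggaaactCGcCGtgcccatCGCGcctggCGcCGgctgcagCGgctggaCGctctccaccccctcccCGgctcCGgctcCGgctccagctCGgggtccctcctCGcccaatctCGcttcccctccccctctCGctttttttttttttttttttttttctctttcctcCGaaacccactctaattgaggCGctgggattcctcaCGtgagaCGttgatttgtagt
The Serpinb1c and Lama2 windows held 0 CpG at a GC content of 46.8% and 47.2%. The Tmem267 window held 17 CpG at 58% GC and the Igf2bp3 window 21 at 60.4%, at or above the median of 17 for windows open in all 8 lists. The region over the Serpinb1c start was called only in Runx1-het (−log10 p 30.6, fold enrichment 8.73, 375 bp) and lay 4700 bp from the nearest peak of another list. That over the Lama2 start was called only in set-2 wild type (−log10 p 31.6, fold 7.78, 860 bp), 5685 bp from another list's peak. At Tmem267 the region was called only in set-2 Flt3-ITD (−log10 p 13.4, fold 5.71, 513 bp), 11207 bp from another list's peak. The Igf2bp3 region was called only in NUP98-HOXD13/Flt3-ITD (−log10 p 31.6, fold 3.4, 412 bp), but a peak of another list lay 275 bp away. Serpinb1c, Lama2 and Tmem267 had no multi-list region within 1 kb of a start, and Igf2bp3 had one. Fold enrichment and −log10 p are the values of the authors' peak caller for the strongest peak in the region, and describe 1 peak within 1 list.

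Set-2 wild type held the most single-list regions and set-2 Flt3-ITD the fewest, an order that followed the lengths of the lists in part. Set-1 wild type had 1113 among its 70341 regions (1.58%), and set-1 Flt3-ITD had 2104 of 77734 (2.71%). Runx1-het had 2990 of 80717 (3.7%). The double mutant Flt3-ITD/Runx1-het had 4094 of 79488 (5.15%). In set 2, wild type had 5099 of 86091 (5.92%), NUP98-HOXD13 3555 of 76093 (4.67%), Flt3-ITD 1062 of 55884 (1.9%) and NUP98-HOXD13/Flt3-ITD 2518 of 73519 (3.42%). The wild-type lists of the 2 sets thus stood near both ends of the range, with 1113 and 5099, and the Flt3-ITD lists at 2104 and 1062.

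The lists held between 81961 peaks (set-2 Flt3-ITD) and 134913 peaks (set-2 wild type). When each list was reduced to its 81961 strongest peaks, the total fell to 13996 single-list regions and the order changed. Flt3-ITD/Runx1-het was then highest with 2617, followed by set-2 Flt3-ITD with 2402 and NUP98-HOXD13 with 2004. NUP98-HOXD13/Flt3-ITD had 1807, set-2 wild type 1539, set-1 wild type 1302, set-1 Flt3-ITD 1226 and Runx1-het 1099. Set-2 Flt3-ITD moved from the lowest count to the second highest although its own list was unchanged, since the other lists lost peaks that had covered its regions. Flt3-ITD/Runx1-het and NUP98-HOXD13 were the 2 lists among the 4 highest under both counts. With 1 list per group, no difference in number between genotypes has an error, and none was tested.

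**Figure D1:**
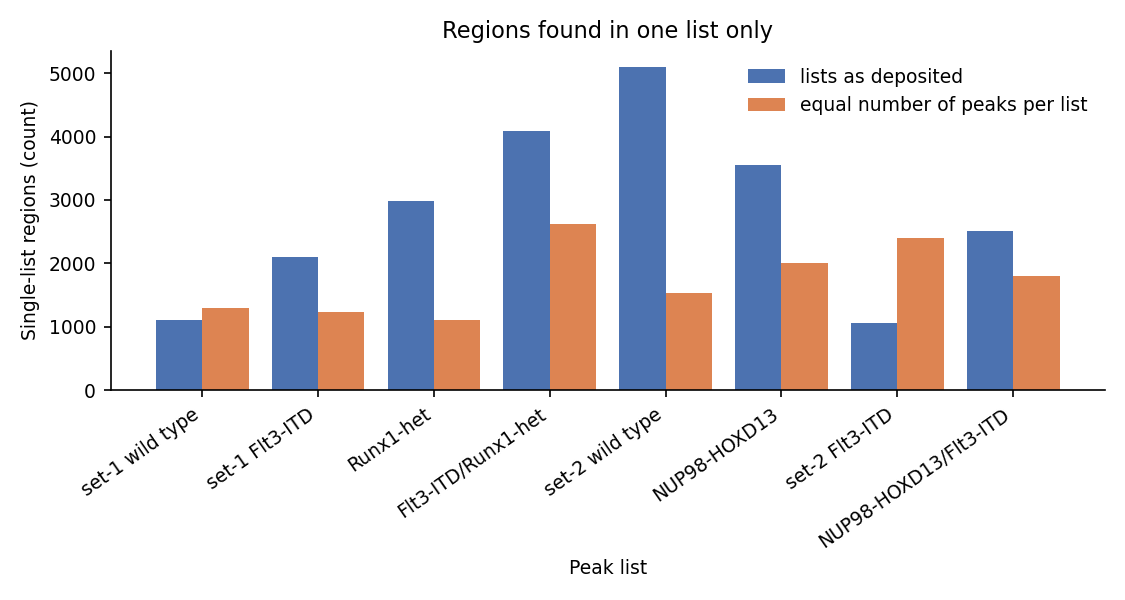
Bars give the number of single-list regions (vertical axis, count) in each of the 8 peak lists, as deposited and with each list reduced to the same 81961 peaks; there are no error bars because each group has 1 list. Set-2 wild type is tallest as deposited (5099) and falls to 1539 at equal numbers, where Flt3-ITD/Runx1-het is tallest (2617).

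Single-list regions were weak and narrow in every list. Ranked within their own list by −log10 p, 93.4% of the 22535 lay in the weakest 25% and 65.5% in the weakest 10%. Only 61 lay above the median of their list, and 1 lay in the strongest 25%. Their median −log10 p ranged from 7.26 in set-2 Flt3-ITD to 14.2 in set-2 wild type, against 21.8 to 68.2 for the multi-list regions of the same lists. Median fold enrichment ran from 3.81 to 5.53 over the lists, against 8.29 to 11.4. The median width per list was 282 to 344 bp, against 526 to 608 bp, and over all single-list regions widths ran from 150 to 1728 bp with a median of 311 bp. The membership rule depends on the same peak calls, so these contrasts carry no test.

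Regions just outside the rule, those in exactly 2 lists, were stronger but still mostly weak within their list. In set-1 wild type the median −log10 p was 11.6 for single-list regions and 13.2 for 2-list regions, and in set-2 wild type 14.2 and 18.7. Set-2 Flt3-ITD gave 7.26 and 8.59. The gap was wider by rank in NUP98-HOXD13, where 0.76% of single-list and 4.61% of 2-list regions lay above the median of the list. Of the weakest 10% of the set-2 wild-type list, 37.0% of regions were found nowhere else, and of the next 10% it was 14.5%. The corresponding shares in set-1 wild type were 12.9% and 2.60%, and in Flt3-ITD/Runx1-het 30.01% and 12.9%. By the fifth band of 10% the share was under 1% in all 8 lists, the highest being 0.730% in Flt3-ITD/Runx1-het.

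**Figure D2:**
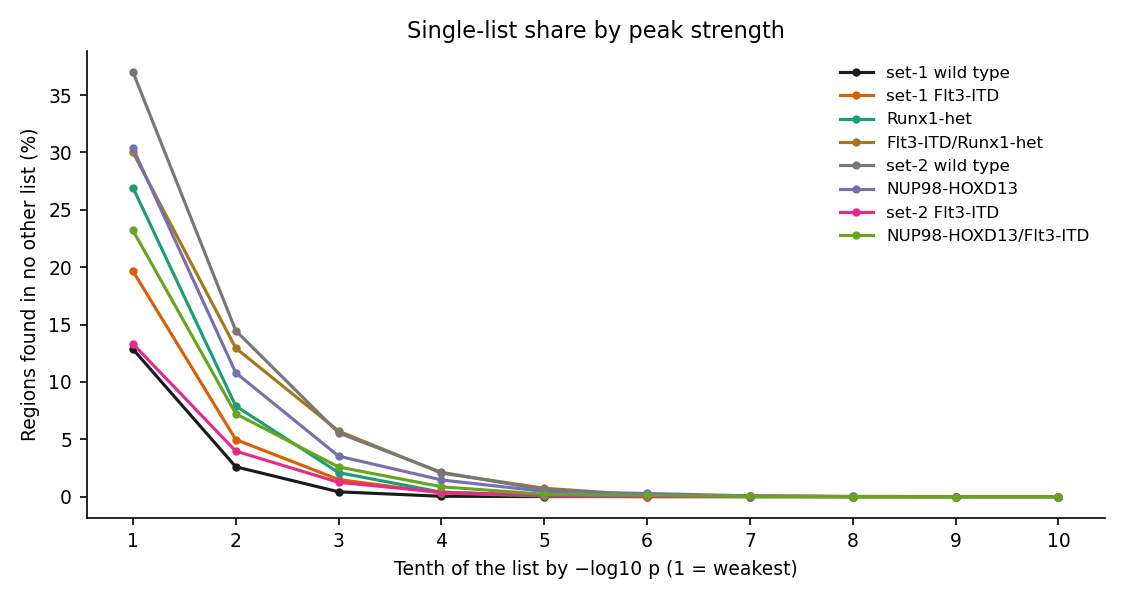
Lines give, for each list, the percentage of regions found in no other list (vertical axis) in each band of 10% of that list ranked by −log10 p (horizontal axis, 1 is the weakest). All 8 lines fall from their highest value in the weakest band, 12.9% to 37.0%, to below 1% at the fifth.

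The few strong single-list regions lay mostly inside or between genes, away from starts. The highest −log10 p, 123 with a fold enrichment of 19.1, belonged to a region at chr9:38479686-38480389 called only in set-2 wild type. It lay 6004 bp from Olfr905, an olfactory receptor gene, and 140274 bp from the nearest peak of any other list. Also in set-2 wild type was a region in Tmem132c, a transmembrane protein gene (−log10 p 99.2, fold 16.4), 46511 bp from a peak of another list.

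In NUP98-HOXD13, strong single-list regions lay in Ppargc1a, the gene of a mitochondrial coactivator (−log10 p 67.8), and Kif26b, a kinesin family gene (64.5). In Flt3-ITD/Runx1-het the strongest were in Ano7, an anoctamin gene (87.3, fold 18.98), at 19592 bp from Trhr, the thyrotropin-releasing hormone receptor gene (75.4), and in Mtrf1l, a mitochondrial translation release factor gene (59.2). In set-1 Flt3-ITD they were in Atox1, a copper chaperone gene (84.2), Ube2ql1, a ubiquitin-conjugating enzyme gene (73.3), and Dapk1, a death-associated kinase gene (53.2).

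In each list the regions named were taken from the strongest with a gene within 100 kb and outside chromosome 18. Under that rule the highest in Runx1-het were −log10 p 48.3 in Nt5c2, a nucleotidase gene, 44.8 at 33904 bp from Cmpk2, a nucleotide kinase gene known to be induced by interferon, and 43.6 in Scamp1, while its highest value over all single-list regions was 54.2. NUP98-HOXD13/Flt3-ITD reached 63.5 in Specc1, 47.6 in Adck1 and 44.6 near Myl10. Set-1 wild type reached 32.1 in the cation exchanger gene Slc24a2, 31.2 in Zc3h12d and 29.0 in Arid5b, the gene of an AT-rich DNA-binding factor. Set-2 Flt3-ITD, the shortest list, reached 23.2 near Pdha2, a pyruvate dehydrogenase subunit gene of the testis, 19.2 near the neuropeptide gene Nps and 17.95 in Ctnna3, an alpha-catenin gene. Since −log10 p grows with depth, which is unknown here, these values are not compared between lists.

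Most single-list regions lay within 10 kb of a peak of another list. Over all lists the median distance to the nearest peak of another list was 3732 bp, 15.9% lay within 0.5 kb, 24.2% within 1 kb and 74.9% within 10 kb. Beside this, the median distance to the nearest region of the same list was 5115 bp. The spacing that the density of peaks alone would give was not tested. Only 467 (2.07%) lay more than 100 kb from any peak of another list. Most of these came from 3 lists of set 2. Beyond that distance lay 179 regions of set-2 wild type (3.51%), 195 of NUP98-HOXD13 (5.49%) and 37 of set-2 Flt3-ITD (3.48%). Elsewhere, NUP98-HOXD13/Flt3-ITD included, the share was 0.359% to 0.468%, or 4 to 18 regions each. The most isolated, in NUP98-HOXD13, was 1049024 bp from the nearest peak of another list.

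Single-list regions were rarer at promoters than multi-list regions in all 8 lists. Averaged over lists, 3.35% lay within 1 kb of an annotated start of a protein-coding gene, against 16.3% of multi-list regions in the same list. The difference was −12.9 percentage points (SD 1.25, n = 8 lists, range −15.6 to −11.7) and was negative in 8 of 8 lists (exact 2-sided sign-flip permutation test over lists, p = 0.00781, adjusted p = 0.00781 over 4 tests). That p is the smallest that 8 lists can give. The share ran from 2.32% in Flt3-ITD/Runx1-het to 4.85% in NUP98-HOXD13/Flt3-ITD among single-list regions, and from 15.0% to 19.3% among multi-list regions, so the 2 classes did not overlap. Mean differences within set 1 (−12.8 points) and set 2 (−13.1 points) were alike in sign and size, but 4 lists cannot give an exact p under 0.125. Since multi-list regions are shared between lists, the 8 differences are not independent, and the p measures only their spread over lists.

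The difference was smaller in the weakest 25% of each list, a limit that does not match strength within it. Over all single-list regions the median rank from the weakest end was 4.1% (set-1 wild type) to 7.5% (Flt3-ITD/Runx1-het) of the list. Single-list regions could therefore still be the weaker ones within that 25%. Among regions in the weakest 25% of each list, the multi-list share near promoters was 5.38% to 8.15%, and the mean difference shrank to −2.61 points, still negative in each list (exact p = 0.00781). By number of lists the promoter share rose from 3.20% (1 list) through 3.49% (2 lists) and 7.46% (7 lists) to 24.5% (8 lists), so the step came at regions open in every list. Single-list and 2-list regions were close in their share of promoters.

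Overlap with gene bodies was lower too, but by much less under 2 alternatives. On average 52.2% of single-list regions and 60.8% of multi-list regions overlapped the span of a protein-coding gene, a difference of −8.65 points (SD 2.98, n = 8, lower in 8 of 8 lists, exact sign-flip permutation p = 0.00781, adjusted p = 0.00781). Among regions in the weakest 25% of each list the difference was −2.98 points (exact permutation p = 0.0312), and set-1 Flt3-ITD turned to +0.54 points, so it was no longer lower in every list. When the summit of the strongest peak was placed in place of the whole region, an alternative added after the data were seen, the difference was −1.85 points and no longer passed (exact permutation p = 0.117; over all alternatives p was 0.00781 to 0.117). By summit, set-1 Flt3-ITD had 55.4% inside genes against 53.8%, and set-2 wild type 48.3% against 53.1%. The promoter difference with summits was −12.4 points (exact p = 0.00781).

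A group of 3 lists of set 2 stood apart in how many of their single-list regions lay far from genes. More than 100 kb from any protein-coding gene lay 18.5% of those in set-2 wild type, 19.4% in NUP98-HOXD13 and 19.8% in set-2 Flt3-ITD. The other lists gave 8.90% in set-1 wild type, 9.55% in set-1 Flt3-ITD, 11% in Runx1-het, 9.48% in the Flt3-ITD/Runx1-het list and 8.74% in NUP98-HOXD13/Flt3-ITD. The 2 groups of lists did not overlap, and NUP98-HOXD13/Flt3-ITD, though of set 2, sat with set 1. These 3 lists were singled out after their values were seen, so the contrast between lists has no test, and genotype and library cannot be told apart.

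Over all 8 lists the mean share far from genes was 13.2% against 7.65% of multi-list regions, a difference of +5.52 points (SD 4.65, n = 8, higher in 8 of 8 lists, exact sign-flip permutation p = 0.00781, adjusted p = 0.00781). The size of the difference was 1.501 to 3.38 points in 5 lists and 10.1 to 11.6 points in the 3. Among regions in the weakest 25% of each list the mean was 3.73 points and did not pass (exact permutation p = 0.0781, and 0.00781 to 0.0781 over all alternatives). There the 3 lists kept shares of 17.8%, 19.01% and 19.98% against 8.97% to 9.44% of weak multi-list regions, while the other 5 differed from their weak multi-list regions by −1.06 to +1.51 points. For scale, 28% of the chromosome length between the outermost genes or regions lies that far from a protein-coding gene.

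**Figure D3:**
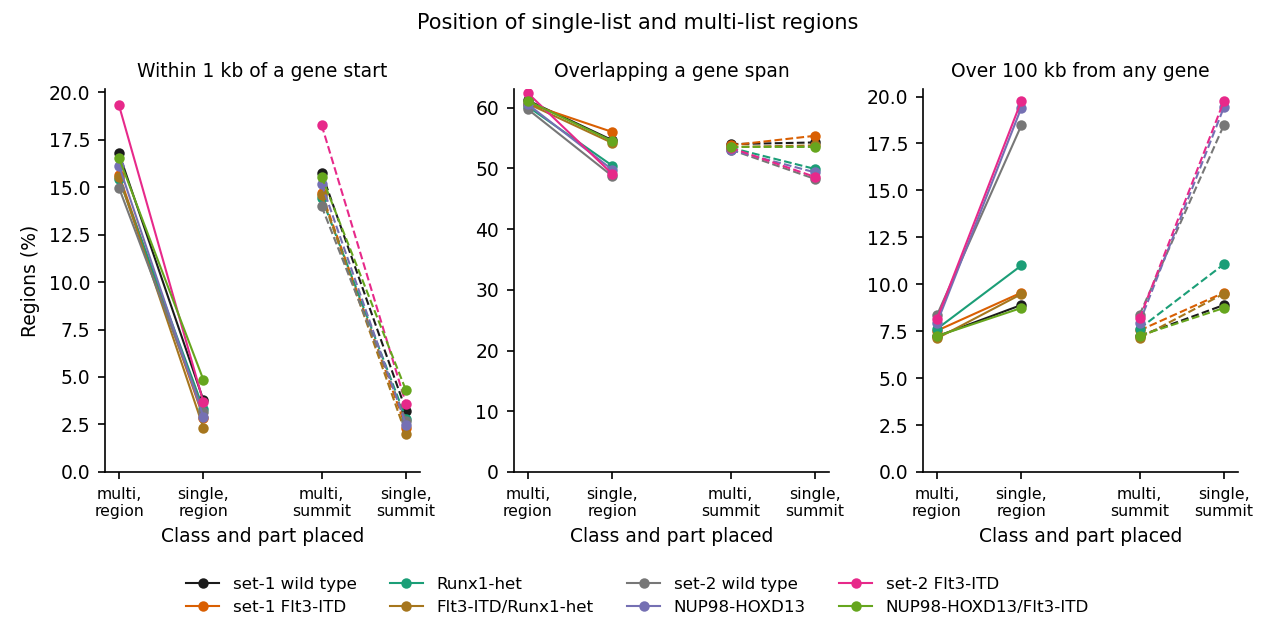
Points give the percentage of regions within 1 kb of a gene start, overlapping a gene span, or over 100 kb from any protein-coding gene (vertical axes), for multi-list and single-list regions of the same list joined by a line; solid lines place the whole region and dashed lines its strongest summit. Promoter shares fall in all 8 lists, the gene-span difference shrinks from −8.65 to −1.85 points with summits, and far shares separate 3 lists of set 2 near 20%.

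The same 3 lists carried the excess at other cut-offs of membership. With equal numbers of peaks, 21.2% of single-list regions of set-2 wild type, 16.3% of NUP98-HOXD13 and 17.5% of set-2 Flt3-ITD lay far from genes, against 6.68% to 10.7% in the other 5. Among single-list regions with −log10 p of at least 10 the shares were 19.01%, 17.4% and 19.9%, against 8.97% to 10.6%. Regions found in exactly 2 lists had their highest shares when both lists were among the 3: 21.3% of 924 regions in set-2 wild type and NUP98-HOXD13, 25.4% of 342 in set-2 wild type and set-2 Flt3-ITD, and 21.5% of 79 in NUP98-HOXD13 and set-2 Flt3-ITD. The other pairs ran from 4.53% to 18.2%, and pairs with 1 of the 3 lists could be nearly as high: 18.2% of 77 regions in NUP98-HOXD13/Flt3-ITD and set-2 Flt3-ITD, 15.6% of 1118 in NUP98-HOXD13 and NUP98-HOXD13/Flt3-ITD, and 15.1% of 1043 in Runx1-het and set-2 wild type. Regions in all 8 lists lay far from genes in 6.26% of cases. Read depth and background of these lists are unknown.

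**Figure D4:**
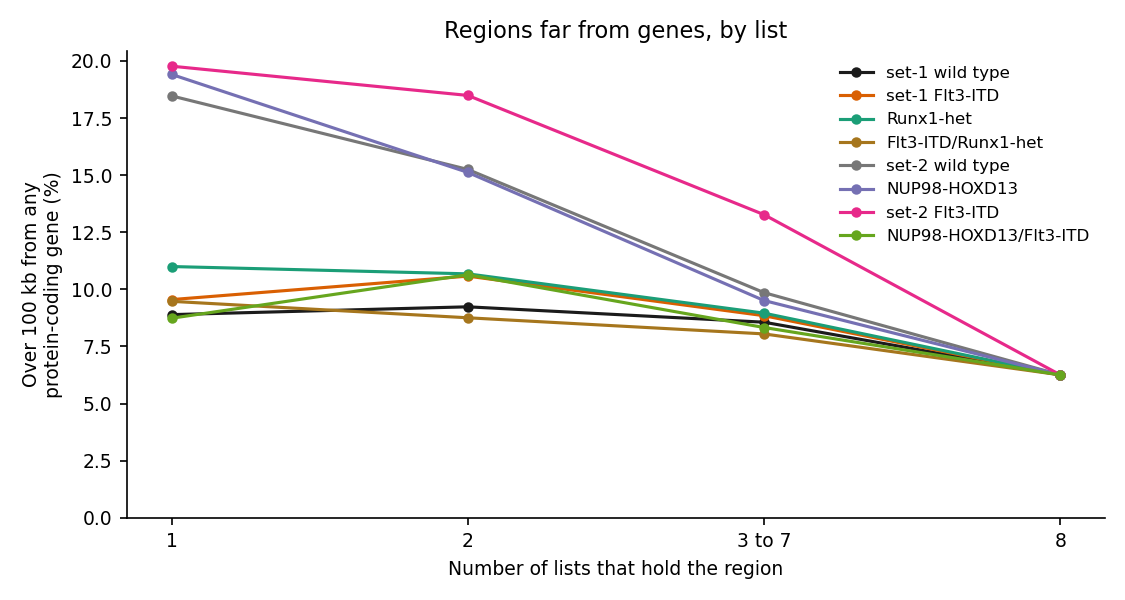
Lines give, for each list, the percentage of regions over 100 kb from any protein-coding gene (vertical axis) by the number of lists that hold the region (horizontal axis). Set-2 wild type, NUP98-HOXD13 and set-2 Flt3-ITD start at 18.5% to 19.8% in 1 list and all 8 lines meet at 6.26%, where the regions are the same.

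Promoter windows held by single-list regions alone were poorer in GC and CpG than promoter windows open in several lists. In all, 721 single-list regions lay within 1 kb of a start, of 693 genes, and 182 of them covered the start itself. For 471 of the 693 genes (68.0%) a multi-list region also lay at a start, close to the 69.6% of all genes with an annotated start, and for 222 the single-list region was the only one. Of 20085 windows of 250 bases before a start, 234 held a single-list region and no other. Their median GC content was 54.4% with 5.5 CpG, against 58.0% with 10 CpG for windows with a region of 2 to 7 lists, 61.2% with 17 CpG for windows of 8 lists and 46.4% with 2 CpG for windows without a region. In sequence these promoters lay between closed and constantly open ones, with the Serpinb1c and Lama2 windows printed above near the closed end and Igf2bp3 near the open end.

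List by list, the median GC content of single-list windows was 50.8% to 58.4% over 5 to 65 windows, against 61.2% for multi-list windows in each list. Single-list windows that also held a multi-list region were left out, while multi-list windows could hold a single-list region too. The result therefore covers only windows with no multi-list region, and how far this exclusion bears on the difference was not tested. The mean difference was −5.83 points (SD 2.62, n = 8, lower in 8 of 8 lists, exact sign-flip permutation p = 0.00781, adjusted p = 0.00781), a test added after the data were seen. Against windows of multi-list regions in the weakest 25% it was −3.45 points (exact permutation p = 0.0156). Set-2 Flt3-ITD rested on 5 windows and set-1 wild type on 10. Multi-list windows are shared between lists, so here too the 8 differences are not independent.

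Short motifs of blood and basal factors were counted in the same windows on both strands. The ETS core CCGGAA, which is itself partly a CpG, was in 5.56% of single-list windows (13 of 234), 23.2% of 8-list windows, 3.93% of windows without a region and 15.3% of all windows. The TATA box TATAAA was in 10.3%, 5.37%, 22.8% and 11.7% in that order. The RUNX motif TGTGGT was in 15.8% (37 windows), 9.91%, 15.9% and 12.2%. The GATA motif AGATAA was in 10.7%, 4.80%, 15.3% and 8.72%. The STAT motif TTCNNNGAA was in 10.3% (24 windows), 5.47%, 8.61% and 6.66%. For ETS, RUNX and GATA the single-list share lay nearer to windows without a region than to 8-list windows. For the TATA box it lay nearer to 8-list windows, and for STAT it lay above both classes. A match describes letters in a window and no factor, and the motif shares were not tested.

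**Figure D5:**
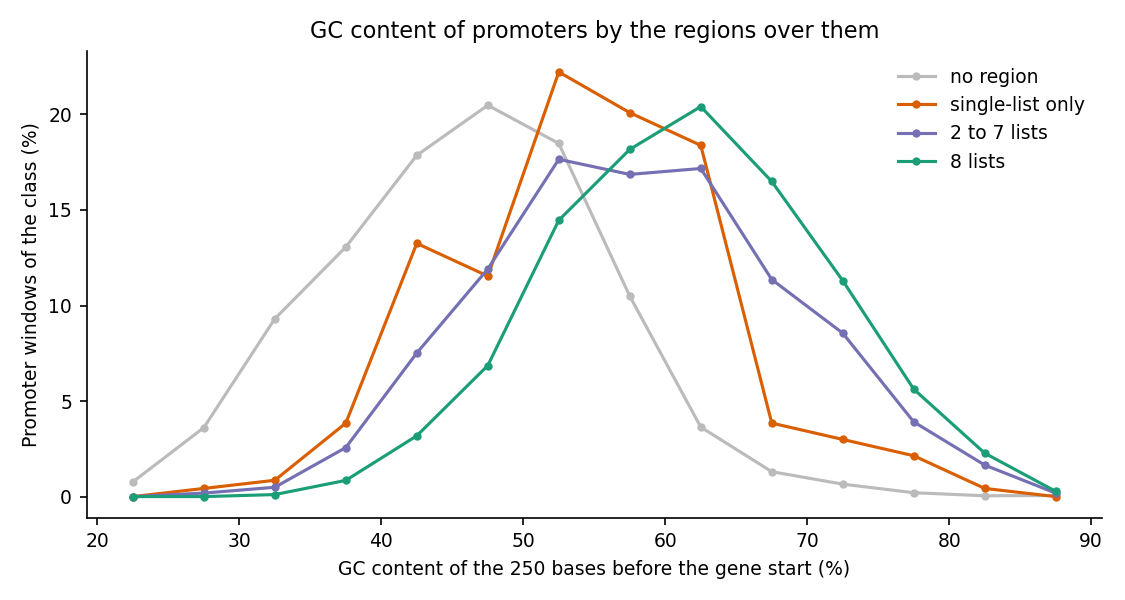
Lines give the distribution of GC content (horizontal axis, in steps of 5 percentage points) over promoter windows of 250 bases, as a percentage of the windows in each class (vertical axis). Windows held by single-list regions only (234) have their highest point at 50% to 55% GC, between windows without a region and windows open in all 8 lists.

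Among the strongest single-list regions at starts, chosen as the 2 with the highest −log10 p in each list, the genes differed from list to list. In Flt3-ITD/Runx1-het they were at Zfp652, a zinc finger gene (−log10 p 44.0), and Stap2, a signal adaptor gene (40.0). NUP98-HOXD13 had Retreg1, a gene of endoplasmic reticulum turnover (38.1), and Ly6g6d (23.4). Set-2 wild type had the prostaglandin E receptor gene Ptger4 (36.4), 389 bp from another list's peak, and the amino acid transporter gene Slc7a7 (35.7). Runx1-het had Serpinb1c (30.6) and the oocyte kinase gene Wee2 (30.4). In set-1 Flt3-ITD they were Ovgp1, an oviduct glycoprotein gene (29.1), and Ccser2 (28.8). NUP98-HOXD13/Flt3-ITD had Igf2bp3 (31.6) and Kat6b, a histone acetyltransferase gene (27.7), both within 0.5 kb of another list's peak. Set-1 wild type had Aldh8a1 (20.7) and the splicing factor gene Mbnl2 (20.3), the latter 430 bp from another list's peak. Set-2 Flt3-ITD had Vpreb2, a surrogate light chain gene of early B cells (15.9), and Tmem267 (13.4).

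Of 20665 protein-coding genes, 6521 (31.6%) had a single-list region in the span or within 2 kb, and the share rose with gene length. It was 10.5% of genes with a span under 10 kb, 24.4% at 10 to 30 kb, 47.5% at 30 to 100 kb, 80.4% at 100 to 300 kb and 94.9% of the 533 genes over 300 kb. Only 266 of the 6521 had no multi-list region. The most single-list regions in 1 gene were the 26 in Foxp1, a forkhead repressor gene of lymphoid and other tissues, beside 63 multi-list regions, with 7 from Runx1-het, 6 from NUP98-HOXD13, 5 from Flt3-ITD/Runx1-het and none from set-1 wild type or NUP98-HOXD13/Flt3-ITD. Wwox, a very long gene at a fragile site, had 21, of which 7 came from Runx1-het.

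Some genes drew many single-list regions from 1 list. In NUP98-HOXD13, Sfi1, a centrosome gene with a span of 71.5 kb, held 7 such regions of its 10 single-list regions, beside 5 multi-list ones, with −log10 p from 7.26 to 15.9. Auts2, a neurodevelopmental gene, held 8 of its 14 from that list. Set-2 wild type gave 8 of the 14 in Tenm3, a teneurin adhesion gene, with −log10 p up to 79.1, and 7 of the 9 in Tnr, the tenascin-R gene. Flt3-ITD/Runx1-het gave 8 of the 13 in Prkag2, an AMP kinase subunit gene, and 7 of the 12 in Cdh13. In Ctnna3 all 5 came from set-2 Flt3-ITD, beside 25 multi-list regions. NUP98-HOXD13/Flt3-ITD gave 6 of 7 in Megf11 and 5 of 6 in Thsd4. Set-1 Flt3-ITD gave 5 of 13 in Trio and 4 of 8 in the stem cell factor gene Prdm16, and set-1 wild type at most 3 per gene, in Cyria and Ilrun. These genes were ranked by the count itself, so the counts are no test.

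Gene lists of blood lineages and signalling were read against the background of 31.6% of all genes, with the caution that long genes hold more regions. Interferon response genes had a single-list region in 10 of 38 (26.3%), granulocyte and monocyte genes in 7 of 24 (29.2%), megakaryocyte and erythroid genes in 6 of 19 (31.6%), T and NK cell genes in 5 of 18 (27.8%) and housekeeping genes in 5 of 16 (31.2%). These shares were near the background over all genes, which does not allow for length. The median span was 5.035 kb for granulocyte and monocyte genes and 4.74 kb for housekeeping genes, and of all genes under 10 kb 10.5% had a single-list region. For interferon response, megakaryocyte and erythroid, and T and NK cell genes it was 14.1 to 19.3 kb, beside 24.4% of all genes of 10 to 30 kb. Higher counts were found for haematopoietic transcription factors (19 of 25), stem cell self-renewal (11 of 20), lymphoid priming (11 of 22), STAT5 targets (9 of 19), dendritic cell (8 of 17), MAPK feedback (7 of 16), mast cell, basophil and eosinophil (7 of 16) and B cell genes (6 of 14), and for stroma and endothelium (10 of 15). Median spans of these lists ran from 7.12 kb to 47.3 kb, against 17.5 kb for all genes. No list was tested for enrichment.

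Within the interferon list, a single-list region of Flt3-ITD/Runx1-het lay in Samd9l, an interferon-induced gene (−log10 p 17.9). Split by list, the share of all 20665 genes with a single-list region was 3.04% for set-1 wild type, 5.43% for set-1 Flt3-ITD, 6.91% for Runx1-het and 9.69% for Flt3-ITD/Runx1-het. For set 2 it was 10.2% for wild type, 7.37% for NUP98-HOXD13, 2.51% for Flt3-ITD and 6.43% for NUP98-HOXD13/Flt3-ITD. Beside these, the interferon genes with a single-list region numbered 3 of 38 in set-2 wild type, 3 in NUP98-HOXD13, 2 in each of the 3 lists Flt3-ITD/Runx1-het, NUP98-HOXD13/Flt3-ITD and Runx1-het, and 1 in set-1 Flt3-ITD. Set-2 Flt3-ITD had 0, as had set-1 wild type. The counts are too small to order the lists. Among STAT5 targets, the effectors downstream of FLT3-ITD, the feedback inhibitor gene Socs2 had 4 single-list regions beside 7 multi-list ones. Its strongest single-list region was in Flt3-ITD/Runx1-het (24.5), 488 bp from another list's peak. Gzmb, the granzyme B gene, had 1 single-list region, in set-1 Flt3-ITD (21.6), and no multi-list region. Spred2, a brake on MAPK signalling, had 3, the strongest in Runx1-het (21.7), 207 bp from another list's peak.

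Progenitor and lineage genes mostly carried single-list regions beside many shared ones. Here and above, the list named for a gene holds its highest −log10 p, which depends on depth and does not order the genotypes. Mecom, the stem cell factor gene, had 11 single-list and 41 multi-list regions, the strongest single-list one in set-2 wild type (17.3). Bach2, a B cell repressor gene, had 9 and 43 (Flt3-ITD/Runx1-het, 28.9), and Erg, an ETS factor gene, 6 and 22 (NUP98-HOXD13/Flt3-ITD, 24.3). Kit had 3 and 5, led by set-2 wild type (36.1). Rag2, a recombinase subunit gene of lymphocytes, had 2 and 2, led by Runx1-het (27.8), 372 bp from another list's peak. Vwf, the von Willebrand factor gene of platelets, had 3 and 13 (Flt3-ITD/Runx1-het, 31.2). Pax5 had 4 and 9, led by Flt3-ITD/Runx1-het (26.8), 193 bp from another list's peak. Camp, the cathelicidin gene of neutrophil granules, had 1 and 0 (Flt3-ITD/Runx1-het, 24.6).

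The HOX and MEIS list, though made of short genes, had the highest single-list share of regions after the neuronal list (25.7%). HOX proteins set position and stem cell state, MEIS and PBX proteins bind DNA with them, and NUP98-HOXD13 carries the DNA-binding part of one of them. Of 34 genes with a median span of 4.42 kb, 18 had a single-list region, and 33 distinct regions against 100 multi-list ones at these genes (24.8%) were single-list, beside 10.5% of regions at genes under 10 kb and 18.9% of all union regions. By list, 8 of the genes had one in NUP98-HOXD13/Flt3-ITD, 5 each in NUP98-HOXD13 and set-2 wild type, 4 in Flt3-ITD/Runx1-het, 4 in Runx1-het, 2 in set-1 wild type, 1 in set-1 Flt3-ITD. Set-2 Flt3-ITD had 0. Over all genes the shares given above were 6.43% for NUP98-HOXD13/Flt3-ITD, 7.37% for NUP98-HOXD13 and 10.2% for set-2 wild type, and over genes under 10 kb they were 1.93%, 1.46% and 2.27%. Those of NUP98-HOXD13/Flt3-ITD included regions at Hoxb6, Hoxb8, Hoxb13, Hoxc4, Hoxc8 and Pbx3, with −log10 p from 5.56 at Hoxb13 to 20.5 at Pbx3. A region in Hoxa3 reached 23.3 in set-2 wild type. HOX genes are clustered, so neighbouring genes share regions, and the list was chosen with earlier results of these data known.

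Long neuronal adhesion and synapse genes followed the split between lists seen far from genes. Of 20 such genes, with a median span of 1221 kb, 19 had a single-list region, close to the 94.9% of all genes over 300 kb. In set-2 wild type 14 of the 20 had one, in NUP98-HOXD13 12 and in set-2 Flt3-ITD 9, against 7 in set-1 Flt3-ITD, 5 in Flt3-ITD/Runx1-het and 2 each in set-1 wild type, Runx1-het and NUP98-HOXD13/Flt3-ITD. Over all 533 genes longer than 300 kb, the shares were 68.3% in set-2 wild type, 55.0% in NUP98-HOXD13 and 22.9% in set-2 Flt3-ITD, and 16.3% to 34.3% in the other 5. Over the long genes, too, set-2 wild type and NUP98-HOXD13 were the highest, while set-2 Flt3-ITD, with the fewest single-list regions, was not. A strong one lay in Nrxn3, a presynaptic adhesion gene (set-2 wild type, −log10 p 92.8, 32567 bp from another list's peak). Csmd1, a long complement-control gene, had 5 single-list regions of NUP98-HOXD13, with −log10 p from 10.4 to 34.5. The fetal progenitor list had single-list regions in 9 of 13 genes with a median span of 39.7 kb, beside 31.6% of all genes and 47.5% of genes of 30 to 100 kb, led by Hmga1, a chromatin protein gene (Flt3-ITD/Runx1-het, 32.9), and Igf2bp3.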

How the data were processed

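ATAC-seq was analysed from 8 deposited peak lists, 1 per group of 2 samples. Bowtie2, MACS2 and the builds mm10 and GRCm38 are named in the submitters' processing notes. Versions, thresholds, filters and the way samples were combined are not stated. Per peak, the deposited values were a fold enrichment (a ratio), a −log10 p-value, a −log10 q-value and a score from 413 to 1000 of unstated meaning. The signal tracks, described as pooled per the labels, were not used here.

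Peaks were merged within and over lists, and each region took its strongest peak by −log10 p. Genes, starts and promoter sequences came from RefSeq (GRCm38.p6), which gave starts for 16457 genes. Exons and introns were not known. Location was compared by exact 2-sided sign-flip permutation over the 8 lists, all 256 sign patterns, with Benjamini-Hochberg adjustment over 4 tests, using Python 3.11.15, numpy 2.4.6, pandas 2.3.3 and scipy 1.17.1. The code was tested on simulated data. All 354 gene list entries were matched, and the 346 on chromosomes 1 to 19 that are protein-coding were used. Where labels do not say that samples are separate animals, p-values measure only the spread over lists.

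Named regions were, per list, the 3 strongest with a gene within 100 kb, the 2 strongest at promoters and the 2 genes with most single-list regions, and per gene list the 2 genes with the strongest region, outside chromosome 18. The regions, the gene lists and the tests were chosen with earlier results of these data known. HOX genes by list, Csmd1 and the start markers fall outside that rule and were named after their values were seen. Some regions that this rule names are not reported here.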

Additional observations from a re-analysis of the deposited data

How the results depend on the processing

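The number of single-list regions was 18690 to 24841, against 22535, when peaks up to 500 bp apart were merged, peaks under a −log10 p of 10 or the shortest list were left out, sex chromosomes were added or an overlap of 50% was required. With equal numbers of peaks it was 13996, and the count moved by over 1.5 times in 6 of 8 lists. Taking a set alone changes the rule to 1 of 4 lists, so those regions may have a peak in the other set. Set 1 alone gave 21282 of 104347 regions and set 2 alone 25694 of 105489. Requiring a −log10 p of 10 left 1828 in NUP98-HOXD13 and 175 in set-2 Flt3-ITD. The promoter difference stayed negative and past the threshold under each alternative run, as did promoter GC. The share far from genes fell to a difference of 3.73 points (exact permutation p = 0.0781) among regions in the weakest 25% of their list. The gene-span difference fell to −2.98 points (exact permutation p = 0.0312) among the same weak regions, with set-1 Flt3-ITD at +0.54. With summits it fell to −1.85 points (exact permutation p = 0.117). The summit alternative was added after seeing the data, as were those of promoter GC. For the far and gene-span results the cause was not tested. Leaving out a sample was not possible because both samples of a group share 1 list. No paired analysis was possible because the lists carry no value per sample. Unknown depth limits every statement on absence from a list.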

Other observations

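Single-list regions made up a similar share of union regions on every chromosome, from 17.03% on chromosome 7 to 20.4% on chromosome 14. Regions found in exactly 2 lists numbered a median of 419 per pair of lists within a set (12 pairs) and 275 per pair between sets (16 pairs). The largest such group was NUP98-HOXD13 with NUP98-HOXD13/Flt3-ITD (1118), followed by set-1 Flt3-ITD with Flt3-ITD/Runx1-het (1049) and, across sets, Runx1-het with set-2 wild type (1043). Of 919 miRNA hairpins, 5 lay under a single-list region and 134 under a multi-list region. Single-list regions were 18.9% of all union regions but narrower than multi-list ones, and the hairpin counts were not tested. One of the 5 was Mir137, a miRNA gene known for its role in neurons, in Runx1-het (−log10 p 12.4, fold 3.92).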
